A study of Mus musculus with 34 samples.

Results

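The regions described here are the 3295 broad H3K27ac regions of mouse embryonic stem cells, those spanning at least 10 kb, out of 96988 regions called for this mark. They were chosen by width alone, as the distance between the start and the end that the authors' table gives. Broad regions made up 3.40% of the regions, covered 54.9 of 244.0 Mb (22.5% of the covered bases) and took 30.7% to 31.9% of the counts of each line.

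H3K27ac is acetylation of lysine 27 of histone H3. It is laid down by the acetyltransferases p300 and CBP and marks active promoters and enhancers. Long unbroken stretches of the mark arise where clustered enhancers lie side by side, often called super-enhancers, and over promoters of strongly expressed genes whose mark spreads into the gene body. In embryonic stem cells such stretches are known at the genes of the pluripotency network and at the microRNA clusters that this network drives. H3K9me3, trimethylation of lysine 9 of the same histone, is the opposite kind of mark. It is found in heterochromatin, over satellites, retrotransposons and clusters of zinc finger genes, where KRAB zinc finger proteins recruit TRIM28 and SETDB1.

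Both marks were profiled by chromatin immunoprecipitation and sequencing (ChIP-seq) in cells grown with serum, LIF and the inhibitors PD0325901 (1 µM) and CHIR99021 (3 µM), which block MEK and GSK3. Separate lines gave 1 library per mark each, from 3 C57BL/6J lines (B6 4-1, 4-4 and 5-1) and 3 DBA/2J lines (D2 2-9, 5-5 and 203), labelled as biological replicates. A further series repeated 1 line per genotype as technical replicates: B6 5-1, D2 5-5, and 2 reciprocal congenic lines. The first, B6.D2-(rs30079041-rs51756099)/Bakr in the labels and B6-13D2 here, has a piece of D2 chromosome 13 in an otherwise B6 genome. The other, D2.B6-(rs29224292-rs13469455)/Bakr or D2-13B6, has the B6 piece in an otherwise D2 genome. The series text ends the latter piece at rs51756099 instead, so its far end is uncertain. Each congenic genotype is thus 1 line, and tests in the repeated libraries compare lines with the spread of technical replicates. The H3K27ac antibody was ab4729 from abcam in the separate lines and 8173S from Cell Signaling Technology in the repeated libraries, so levels were compared only within a series. H3K27ac counts per library ranged from 15444270 to 18272793 in the separate lines and from 8735674 to 11543469 in the repeated libraries. H3K9me3 libraries held only 1487862 to 2559262 counts. Repeated H3K27ac libraries that differed by less than sampling noise were summed, which left n = 2 per line. Replicate 1 of D2-13B6 stood apart from the other libraries of its line for both marks (chi-square per degree of freedom of 2.81 and 2.82 for H3K27ac and of 3 and 3.28 for H3K9me3, against 0.906 and 1.24 between replicates 2 and 3). Results that moved without it are given beside the result.

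Markers of the labelled cell type carried the mark. Each of 8 embryonic stem cell markers (Pou5f1, Sox2, Nanog, Zfp42, Esrrb, Klf4, Dppa5a and Tdgf1) had its transcript start in a broad region. Their summed level was 1403 to 1583 CPM (the count scaled to sequencing depth, on TMM-scaled library sizes) in the 6 lines. Of 13 fibroblast (feeder cell) markers none had its start in a broad region and 9 lay in no H3K27ac region, among them Col1a1, Col1a2, Col3a1 and Twist2. The other 4 summed to 11.4 to 14.3 CPM. Of 7 markers of differentiated lineages none had its start in a broad region. The 5 that lay in narrower regions summed to 45.4 to 50.5 CPM in B6 lines and 57 to 60 CPM in D2 lines.

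The microRNA clusters show what a broad region can hold, and their mature sequences are printed because 2 unlinked broad regions carry the same seed, the bases that pair with target messages. The region over the miR-290 cluster (chr7:3198314-3224948, GRCm38, 26635 bp) and the one over the miR-302 cluster (chr3:127538630-127555848, 17219 bp) both hold microRNAs with the seed AAGUGCU, given in capitals. Sequences and positions are those of RefSeq on GRCm38.p6, 5′ to 3′.
miR-291a-3p: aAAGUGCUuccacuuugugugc
miR-294-3p: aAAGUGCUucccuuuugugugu
miR-295-3p: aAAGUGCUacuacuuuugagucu
miR-302b-3p: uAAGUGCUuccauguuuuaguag
miR-302d-3p: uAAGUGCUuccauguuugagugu
The first 3 come from the miR-290 cluster, the main microRNAs of naive embryonic stem cells, and the last 2 from the miR-302 cluster. The miR-290 region was among the 5 densest broad regions, at 10.5 CPM per kb, while the miR-302 region was at 5.65, near the median of broad regions. In the miR-290 region the B6 lines held 310, 268 and 278 CPM and the D2 lines 277, 263 and 278 CPM, ranges that overlap. In the miR-302 region the B6 lines held 91.8, 82 and 85 CPM and the D2 lines 116, 109 and 99.9 CPM, with no overlap between strains (log2 difference 0.33 ± 0.07, edgeR adjusted p = 5.67e-05). Here and below, log2 differences are D2 minus B6 with the standard error of the fit after ±, over 3 lines per strain unless repeated libraries are named.

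The sequences below are the central 300 bases of the densest stretch in the broad regions of Pou5f1 and Nanog, the core transcription factors of these cells, from GRCm38, plus strand. They show the DNA under the peak of the mark. The first lies at chr17:35504542-35504841, outside any gene body and 1327 bp from the start of Pou5f1. The second lies at chr6:122702828-122703127, also outside any gene body and 3949 bp from the start of the nearest gene, Gm10224.
Pou5f1: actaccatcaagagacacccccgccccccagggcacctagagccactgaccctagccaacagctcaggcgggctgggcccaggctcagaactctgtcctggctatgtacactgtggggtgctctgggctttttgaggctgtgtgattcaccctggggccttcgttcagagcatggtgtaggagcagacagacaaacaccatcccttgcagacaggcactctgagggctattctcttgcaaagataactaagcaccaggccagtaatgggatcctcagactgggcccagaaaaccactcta
Nanog: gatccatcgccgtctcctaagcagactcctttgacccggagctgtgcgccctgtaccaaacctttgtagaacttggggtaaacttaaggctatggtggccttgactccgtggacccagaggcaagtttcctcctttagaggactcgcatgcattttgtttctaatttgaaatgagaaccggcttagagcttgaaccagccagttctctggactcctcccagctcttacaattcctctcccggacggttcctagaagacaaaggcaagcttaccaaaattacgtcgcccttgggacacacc
The whole stretch at Pou5f1, which also takes in the gene's start, held 35.5 CPM per kb over 5633 bp and the one upstream of Nanog 43.4 over 3233 bp in the repeated libraries of B6 and D2. Both windows were searched on both strands for 4 motifs bound by pluripotency factors: the octamer ATGCAAAT, TCAAGGTCA (of the ESRRB kind), CCACACCC (of the KLF kind) and CATTGTT (of the SOX kind). Neither window holds these letters, which says nothing about binding. Over 12551 stretches in broad regions that were 300 bp or longer, the central 300 bases held the octamer in 2.23%, TCAAGGTCA in 2.27%, CCACACCC in 6.13% and CATTGTT in 5.11%. The shares over all 216549 such stretches were 3.27%, 1.42%, 6.10% and 5.73%. TCAAGGTCA was thus more frequent in broad regions than over all stretches and the octamer less frequent, as a description with no test.

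Broad regions were not only long but dense. Their median width was 14051 bp. Of them 1005 were under 12 kb, 717 were 20 kb or wider and 19 were 50 kb or wider. Their level was 5.38 CPM per kb in the median (5th to 95th percentile 3.74 to 7.69), against 2.91 over all regions. The level rose step by step with width, from 2.59 CPM per kb under 1 kb and 4.46 between 5 and 10 kb to 5.23 between 10 and 20 kb and 6 at 20 kb and above. Within the 3295 broad regions the rank correlation of width and CPM per kb was 0.32, a description, since both come from the mark and the width may have been called on these libraries. Each broad region passed the filter on low counts, with at least 132 counts in every line and a median of 1286. Just inside the 10 kb limit lay the regions at Senp2 (10001 bp, 4.3 CPM per kb), Smim15 (10007 bp, 5.53) and in Pcmt1 (10007 bp, 3.31), and just outside it were 3 regions of 9998, 9998 and 9999 bp with 6.16, 3.95 and 5.8 CPM per kb.

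**Figure D1:**
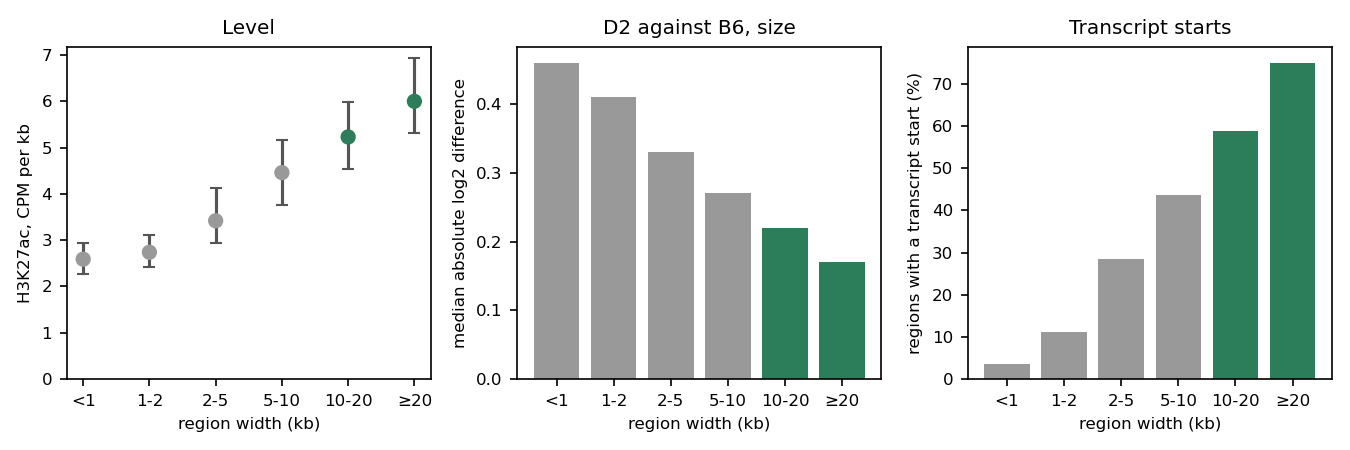
H3K27ac regions by width class (kb), with the broad classes in green and narrower classes in grey. Left, the median level in CPM per kb with bars from the first to the third quartile over regions; middle, the median absolute log2 difference between D2 and B6 lines; right, the percent of regions that hold a transcript start. Level and starts climb with width, to 6 CPM per kb and 75% at 20 kb and above, while the strain difference shrinks from 0.46 to 0.17.

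Most broad regions covered a gene's start. In the GENCODE M21 annotation, 1653 held at least 1 protein-coding transcript start (385 of them 2 or more, 2126 genes in all). A further 401 held only starts of non-coding genes or pseudogenes. The remaining 1241 held no start: 838 lay within the body of a protein-coding gene and 403 outside, a median of 19334 bp from the nearest protein-coding start. Exons covered a median of 4.33% of a broad region, so most of the covered bases were intronic or intergenic. A protein-coding start was found in 2.03% of regions under 1 kb, 35.1% of those of 5 to 10 kb, 47.4% of those of 10 to 20 kb and 60.3% of those of 20 kb or wider. Regions with a start had a median level of 5.47 CPM per kb and a median width of 14897 bp, and those without one 5.19 and 12796. Chromosome 11 carried the most broad regions for its length, 2.38 per Mb, and the X chromosome few, 0.205 per Mb.

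The 10 widest regions included that of Kat6b, a histone acetyltransferase, with 90432 bp, and the shared region of Hspb1, a small heat shock protein, and Ywhag, a 14-3-3 protein, with 84526 bp. Others were Trip12 with Fbxo36 (80659 bp), Mtf2, an accessory subunit of Polycomb repressive complex 2 (74862 bp), and Klf5, a pluripotency factor (67490 bp). Zbtb44 (67391 bp), Mkrn1 (62750 bp), a stretch inside Macf1 (61994 bp) and Rtn4 (61763 bp) were also among them. Of the 10, 3 were lower in D2 (lower among broad regions 27.5%, all regions 25.0%): Kat6b (-0.16 ± 0.06, adjusted p = 0.021), the Macf1 stretch (-0.18 ± 0.06, adjusted p = 0.011) and Rtn4 (-0.29 ± 0.06, adjusted p = 5.54e-05). The Kat6b call was lost without B6 replicate 1 or 3 or D2 replicate 3 and that of the Macf1 stretch without B6 replicate 1. The region of Hspb1 and Ywhag, not called here (0.13 ± 0.06, adjusted p = 0.0557), was called higher with DESeq2, library totals, no filter or a replicate block and without B6 replicate 1 or D2 replicate 1. Without a start, the widest regions lay inside Arl15 (54069 bp), Epha4 (49368 bp), Scn3a (48592 bp), Etv5 (48542 bp) and Tns3 (44510 bp). The Epha4 stretch, inside the gene of an ephrin receptor, was higher in D2, at 358, 358 and 333 CPM against 255, 232 and 243 CPM (log2 difference 0.52 ± 0.06, adjusted p = 1.53e-10).

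The densest broad regions were of different kinds. Both regions at the start of the chromosome 9 assembly (chr9:2999972-3010507 and chr9:3014649-3033036), which hold only predicted genes, reached 49.2 and 48.3 CPM per kb. The same stretches held 4894 and 7375 CPM per kb of H3K9me3, far above the median of 5.36 over all H3K9me3 rows, and are uncertain, since this end of the chromosome is known for satellite repeats and how reads with many matches were counted is not stated. Myo10, an unconventional myosin, followed with 11 CPM per kb, then the miR-290 cluster and Gm21411 (10.4), a predicted gene in the zinc finger cluster of distal chromosome 4. The thinnest broad regions were an intergenic one at chr1:130243077-130253760 (2.7 CPM per kb), Map3k5, a stress kinase (2.77), and an intergenic one near Obox6 (2.87). All 3 differed between the strains, by 2.45, 1.13 and -2.36 on the log2 scale. Among broad regions 59.4% were called and 6.19% were called at 2-fold or more. Choosing by the mean over 6 lines favours regions where 1 strain has little of the mark.

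Strain differences in broad regions were frequent but small. Between 3 D2 and 3 B6 lines, 1957 of 3295 were called (59.4%; edgeR quasi-likelihood test, adjusted p under 0.05 over all regions), against 49.3% of all 96291 regions tested. Of these, 1052 were higher in D2 (31.9%, all regions 24.3%) and 905 lower (27.5%, all regions 25.0%). Called differences of 2-fold or more were rarer than among all regions: 204 broad regions (6.19%) against 12.4%. The median absolute log2 difference was 0.20 in broad regions and 0.38 over all regions. Counts per region differ greatly, with a median of 7697 counts over the 6 lines at 10 kb and above and of 157 under 1 kb, and the median SE of the log2 difference was 0.0681 in broad regions and 0.278 under 1 kb. Leaving out the regions on X, Y and the start of chromosome 9 gave 1935 of 3256.

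A larger share of broad regions without a transcript start differed between strains. Of the 1241 without a start, 791 were called (63.7%) and 9.75% were called at 2-fold or more. Of the 2054 with a start the shares were 56.8% and 4.04%, and of the 1653 with a protein-coding start 54.3% and 2.42%. Of the 204 regions changed at least 2-fold, 121 held no start and only 40 a protein-coding start. The lines of the strains did not overlap in any of the 204, which the choice of called 2-fold differences favours. The 2-fold differences ran both ways (113 higher in D2, 91 lower). They were 26 of 153 broad regions on chromosome 13, 22 of 263 on chromosome 4, 16 of 163 on chromosome 17 and 8 of 204 on chromosome 7. Over all chromosomes the share was 6.19% of broad regions and 12.4% of all regions. The direction leaned apart as well: with a start 703 rose and 463 fell in D2, and without one 349 rose and 442 fell. The lean kept its sign with library totals in place of TMM (721 and 531 with a start, 353 and 485 without).

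**Figure D2:**
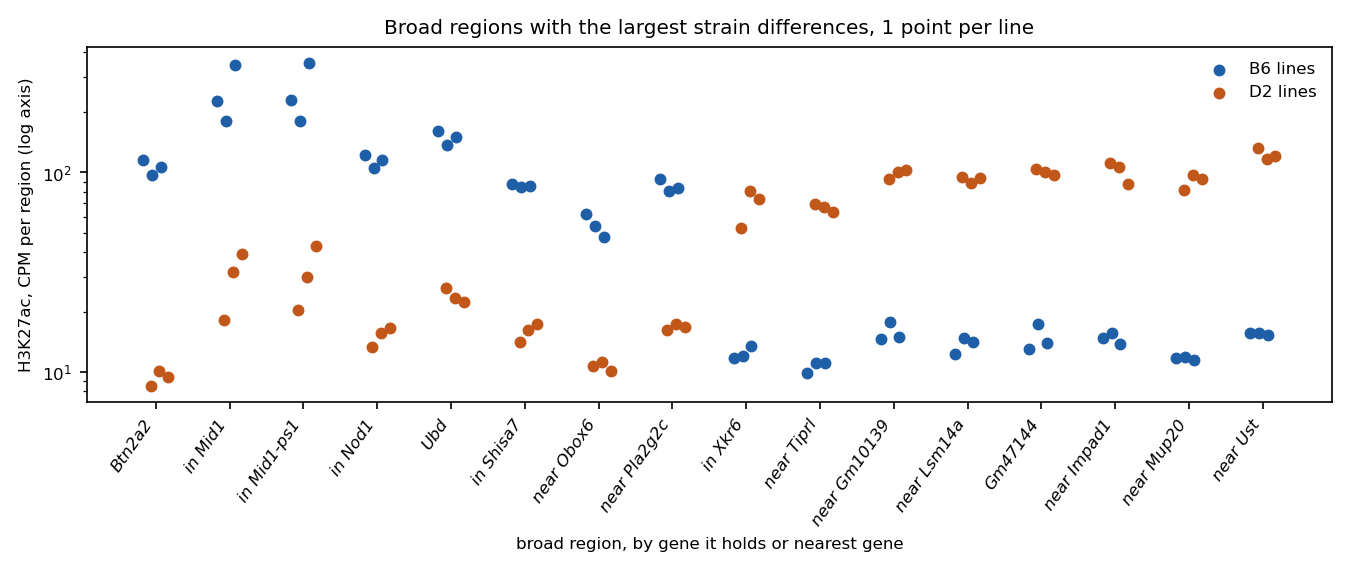
H3K27ac in the 16 broad regions with the largest differences between D2 and B6 lines, 8 in each direction, as CPM per region on a log axis. Each point is 1 line, B6 in blue and D2 in orange. Separation of the strains was a condition for choosing these regions. At Btn2a2 the B6 lines held 115, 97.1 and 106 CPM and the D2 lines 8.48, 10.1 and 9.45 CPM.

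The largest loss in D2 was at Btn2a2, which codes for a butyrophilin that restrains T cells. Its broad region (chr13:23487524-23504032) held 115, 97.1 and 106 CPM in B6 lines and 8.48, 10.1 and 9.45 CPM in D2 lines (log2 difference -3.50 ± 0.09, adjusted p = 5.5e-37). A region inside Nod1, a sensor of bacterial peptidoglycan, held 122, 105 and 115 CPM in B6 and 13.3, 15.6 and 16.7 CPM in D2 (-2.90 ± 0.08, adjusted p = 5.84e-35). The region of Ubd, a ubiquitin-like modifier, held 162, 137 and 150 CPM in B6 and 26.5, 23.4 and 22.4 CPM in D2 (-2.64 ± 0.08, adjusted p = 1.6e-34). The other losses outside the sex chromosomes lay inside Shisa7 (-2.44 ± 0.08), between genes near Obox6 (-2.36 ± 0.09) and near Pla2g2c (-2.35 ± 0.08). Regions in Mid1 on X (-3.08 ± 0.13) and in Mid1-ps1 on Y (-3.03 ± 0.14) had nearly the same values in each line, 229, 181 and 344 CPM and 230, 182 and 353 CPM in B6. Mid1 spans the boundary of the pseudoautosomal region, and Mid1-ps1 is annotated as its pseudogene. How reads were divided between them was not tested, so both values are uncertain.

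The largest gains in D2 lay almost all away from starts. An intergenic region 29572 bp from Ust, which sulfates dermatan chains (chr10:8548397-8562903), held 15.7, 15.6 and 15.3 CPM in B6 lines and 132, 117 and 121 CPM in D2 lines (2.99 ± 0.08, adjusted p = 3.98e-36). A region 80152 bp from Mup20, a major urinary protein gene (chr4:61961230-61974006), held 11.8, 11.9 and 11.5 CPM in B6 and 81.4, 96.6 and 92.8 CPM in D2 (2.94 ± 0.08, adjusted p = 8.3e-35). Among the 8, only the region of the predicted gene Gm47144 held a start (2.77 ± 0.08). The others lay near Impad1 (2.78 ± 0.08), Lsm14a (2.75 ± 0.08), Gm10139 on chromosome 13 (2.65 ± 0.08) and Tiprl (2.64 ± 0.08), or inside Xkr6 (2.47 ± 0.10).

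The DNA under the strongest loss and the strongest gain is printed as the densest stretch of each region, from GRCm38 (the B6 reference), plus strand. At Btn2a2 the center of the densest stretch (chr13:23492544-23492843) lay outside any gene body, 3836 bp from the start of Btn2a2. The stretch held 37.4 and 41.2 CPM in the 2 repeated samples of B6 and 0.834 and 0.796 CPM in those of D2. Near Ust the densest stretch (chr10:8549437-8549712) held 0.802 and 0 CPM in B6 and 13.5 and 10 CPM in D2, a small part of the region's counts. The capitals in the first sequence mark the octamer on the minus strand (ATTTGCAT on the strand shown).
Btn2a2: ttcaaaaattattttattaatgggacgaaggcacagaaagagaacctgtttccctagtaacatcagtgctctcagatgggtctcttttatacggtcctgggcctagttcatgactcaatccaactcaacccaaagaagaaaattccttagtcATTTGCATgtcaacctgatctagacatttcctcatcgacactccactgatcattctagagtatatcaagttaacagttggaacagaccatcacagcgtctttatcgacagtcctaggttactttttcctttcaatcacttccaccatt
near Ust: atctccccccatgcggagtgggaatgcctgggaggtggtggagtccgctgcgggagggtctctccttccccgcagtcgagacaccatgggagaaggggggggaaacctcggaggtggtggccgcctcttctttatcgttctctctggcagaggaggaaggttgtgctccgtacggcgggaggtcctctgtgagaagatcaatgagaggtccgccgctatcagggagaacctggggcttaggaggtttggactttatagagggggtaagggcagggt
The Ust stretch holds none of the 4 motifs.

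The repeated libraries, made with the other antibody, gave mostly the same directions. B6 5-1 and D2 5-5 are in both series, so the series share lines but no library. Of the 3289 broad regions with counts there, 2091 were called between D2 and B6 (63.6%, all regions 45.8%), 1261 higher (38.3%, all regions 23.1%) and 830 lower (25.2%, all regions 22.8%). With library totals in place of TMM the split was 1118 higher and 1181 lower, and the median of all regions moved by -0.12. Of 1508 regions called in both series, 1466 (97.2%) had the same direction and 42 the opposite one. All 201 of the regions changed 2-fold in the separate lines that had counts moved the same way here, and 200 of them were called. These shares were not computed over all regions. Across the 3289 regions the log2 differences of the series had Pearson's r of 0.87 and Spearman's rho of 0.79, a description across regions, which are not independent replicates. At Btn2a2 the repeated samples held 103 and 109 CPM in B6 and 19.2 and 18 CPM in D2.

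At pluripotency genes most broad regions were not called between strains. Of 26 genes of the naive network, 19 had their start in a broad region. Of these 19 regions 2 rose in D2, 3 fell and 14 were not called (called among broad regions 59.4%, all regions 49.3%), with a median log2 difference of -0.03 (all regions -0.01) and a largest absolute value of 0.40. With library totals in place of TMM, 2 rose and 6 fell. Pou5f1 held 183, 170 and 182 CPM in B6 and 171, 172 and 177 CPM in D2 (-0.04 ± 0.06, adjusted p = 0.612). Sox2 held 237, 209 and 226 CPM in B6 and 239, 227 and 238 CPM in D2 (0.07 ± 0.06, adjusted p = 0.368), and Nanog 268, 228 and 254 CPM against 273, 262 and 266 CPM (0.09 ± 0.06, adjusted p = 0.199). For all 3 genes the lines of the strains overlapped. Nr0b1, an X-linked orphan receptor that binds OCT4, fell the most, from 50.2, 35.4 and 40.5 CPM to 33.3, 29.9 and 32.8 CPM (-0.40 ± 0.09, adjusted p = 0.000121). Nr5a2, a nuclear receptor of the network (-0.22 ± 0.07, adjusted p = 0.00527), and Tdgf1, a Nodal co-receptor (-0.17 ± 0.06, adjusted p = 0.018), also fell. Dppa2, which with DPPA4 primes bivalent and LINE-1 promoters, rose from 163 CPM in each B6 line to 199, 206 and 201 CPM (0.31 ± 0.06, adjusted p = 2.56e-05), and Utf1, a chromatin factor of stem cells, rose too (0.19 ± 0.07, adjusted p = 0.0177). The not-called members were Klf4, Klf2, Klf5, Tbx3, Zfp42, Mycn, Tfcp2l1, Fgf4, Dppa5a, Sall4 and Esrrb beside those 3, with values from -0.14 to 0.10. In the repeated libraries the same 19 regions gave 7 higher, 0 lower and 12 not called (higher among broad regions 38.3%, all regions 23.1%), with a median of 0.14 (broad regions 0.11) and with library totals 6 higher and 2 lower. Of the 5 called in the separate lines, Utf1 was called again in the repeated libraries (0.95 ± 0.09, adjusted p = 6.37e-09) and Nr0b1, Nr5a2, Tdgf1 and Dppa2 were not (0.08, -0.12, 0.02 and 0.17). Leaving out 1 line ended the calls of Nr5a2 (D2 replicate 2), Tdgf1 (B6 replicate 1 or D2 replicate 3) and Utf1 (B6 replicate 2 or 3), and Esrrb (B6 replicate 2 or D2 replicate 1) and Sall4 (B6 replicate 2) were then called lower and Nanog (B6 replicate 1) higher. Esrrb was also called lower with a replicate block, and Esrrb and Sall4 with a mean of at least 20 counts per library. Between B6-13D2 and B6, 10 of the 19 regions were higher and 0 lower (higher among broad regions 29.0%, all regions 13.4%), with a median of 0.25 (broad regions 0.11), and with library totals 9 were higher and 2 lower. Between D2 and D2-13B6, 0 were higher and 1 lower (higher and lower among broad regions 9.36% and 11.9%, all regions 4.08% and 7.48%), and with library totals 2 were higher and 3 lower.

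Broad regions of housekeeping genes were mostly higher in D2. Of 21 genes 15 had their start in a broad region, and 10 of these regions rose in D2, 1 fell and 4 were not called (called among broad regions 59.4%, all regions 49.3%), with a median of 0.19 against 0.03 over broad regions and -0.01 over all regions. Actb, coding for beta-actin, held 114, 116 and 122 CPM in B6 and 151, 162 and 160 CPM in D2 (0.43 ± 0.06, adjusted p = 1.01e-07). Ncl, coding for nucleolin, held 114, 102 and 110 CPM in B6 and 134, 150 and 142 CPM in D2 (0.39 ± 0.06, adjusted p = 1.51e-06). Rplp0, of the ribosomal stalk, was the one that fell, from 66.3, 63.6 and 69.1 CPM to 52.6, 59.1 and 54.6 CPM (-0.26 ± 0.07, adjusted p = 0.00181). The rest of those that rose were Eef1a1, Srsf2, Ppia, Rpl3, Pabpc1, Npm1, Hsp90ab1 and Gapdh, with values from 0.32 down to 0.15. The count was 10 higher and 1 lower with library totals and with DESeq2 as well, and 11 higher and 1 lower in the repeated libraries (higher among broad regions 38.3%, all regions 23.1%). Eno1, a glycolytic enzyme gene, was not called (-0.11 ± 0.11, adjusted p = 0.412): D2 line 1 held 55.4 CPM against 111 and 112 CPM in the other D2 lines and 103, 93.2 and 105 CPM in B6. Without D2 line 1 it was called as higher in D2 (0.16 ± 0.07, adjusted p = 0.0486), and without D2 line 2 or 3 as lower (-0.25 and -0.26). The Gapdh call was lost with a mean of at least 20 counts per library and without B6 replicate 2 or 3 or D2 replicate 1 or 3. Leaving out 1 line also ended the calls of Npm1 (B6 replicate 3 or D2 replicate 2), Pabpc1 (B6 replicate 2 or D2 replicate 2) and Hsp90ab1 (B6 replicate 2 or D2 replicate 3). Between B6-13D2 and B6 none of the 15 regions was called (called among broad regions 36.6%, all regions 22.5%). With library totals 6 of them were lower, as were 877 of 3289 broad regions.

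**Figure D3:**
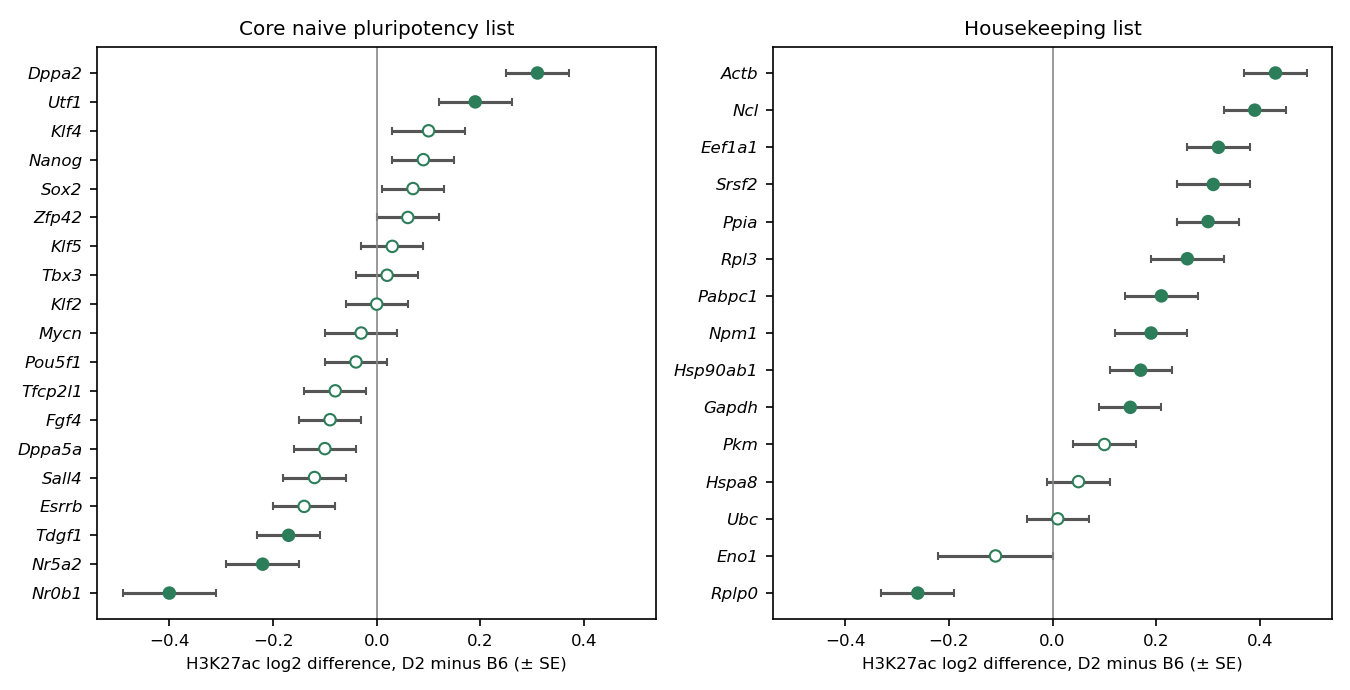
Difference in H3K27ac between D2 and B6 lines (log2, bars ± SE from 3 lines per strain) for broad regions that hold the start of a gene of the core naive pluripotency list (19 regions, left) or of the housekeeping list (15 regions, right). Filled points passed the edgeR test at an adjusted p under 0.05; 14 of 19 on the left and 4 of 15 on the right did not.

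Genes of heterochromatin and DNA methylation moved in both directions. Of 22 genes, 14 had a start in 15 broad regions, of which 5 rose, 2 fell and 8 were not called, a share close to that of all regions (49.3% called) and below that of broad regions (59.4%). Dnmt3a, a de novo DNA methyltransferase, fell from 50.2, 49 and 54.3 CPM in B6 to 31.4, 29.9 and 30.7 CPM in D2 (-0.74 ± 0.07, adjusted p = 3.09e-12). Dnmt3l, its catalytically inactive cofactor, rose from 65, 64.4 and 66.3 CPM to 87.7, 87.7 and 86.1 CPM (0.42 ± 0.07, adjusted p = 4.62e-07). The cofactor and the enzyme thus went opposite ways, with no overlap between strains in either. Trim28, the corepressor of KRAB zinc finger proteins, rose from 151, 144 and 146 CPM to 191, 177 and 189 CPM (0.34 ± 0.06, adjusted p = 7.91e-06). Dppa2, also on this list, Uhrf1, which guides DNMT1 (0.25 ± 0.06, adjusted p = 0.000604), and Cbx3, an HP1 protein (0.21 ± 0.06, adjusted p = 0.00649), rose as well. One of the 2 regions of Cbx5, another HP1 gene, fell (-0.18 ± 0.07, adjusted p = 0.0198). Dnmt1, Tet1, Tet2, Kdm4c, Cbx1, Morc3, Zfp57 and the other Cbx5 region were not called. The Cbx5 call was lost with DESeq2 and without B6 replicate 1 or 3 or D2 replicate 3, and that of Cbx3 without B6 replicate 2. Kdm4c, Cbx1 and Morc3 were called lower with library totals, and Tet2 was called higher without B6 replicate 1. In the repeated libraries Dnmt3a (-1.20 ± 0.10, adjusted p = 3.25e-10), Dnmt3l (1.03 ± 0.10, adjusted p = 2.33e-09) and Trim28 (0.65 ± 0.09, adjusted p = 1.42e-06) were called in the same directions.

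The writers, readers and erasers of H3K27ac itself had 6 of 17 genes with a start in a broad region, and 4 of these regions were called (called among broad regions 59.4%, all regions 49.3%). Brd2, a bromodomain reader, rose (0.44 ± 0.07, adjusted p = 3.65e-07), while Ncoa3, a coactivator (-0.25 ± 0.06, adjusted p = 0.000515), Hdac1, a deacetylase (-0.17 ± 0.07, adjusted p = 0.0306), and Kat6b fell. Hdac2 was not called. The Hdac1 call was lost with DESeq2 and without any 1 line except B6 replicate 2, and that of Kat6b without B6 replicate 1 or 3 or D2 replicate 3. None of the 4 called here was called in the repeated libraries (Brd2 -0.26, Ncoa3 -0.15, Hdac1 -0.20, Kat6b 0.05). Of broad regions 63.6% were called there, and of all regions 45.8%. Of the 6 regions, 3 were called lower there with library totals (1181 of 3289 broad regions). With a replicate block 2 were higher and 2 lower (1542 and 958 of the broad regions). Of the non-coding RNA hosts, 14 of 21 annotated genes lay in 11 broad regions, of which 4 rose, 2 fell and 5 were not called, a share between those of all regions and of broad regions (49.3% and 59.4% called). The region of Lncenc1, a long non-coding RNA of naive stem cells, fell from 179, 164 and 169 CPM to 125, 136 and 139 CPM (-0.35 ± 0.06, adjusted p = 5.12e-06), and that of Tsix, the antisense partner of the X inactivation RNA, fell too (-0.28 ± 0.07, adjusted p = 0.000796). The regions of Mir302b, Snhg3 (0.31 ± 0.06), Neat1 (0.27 ± 0.06) and Mir21a (0.17 ± 0.06) rose, while Malat1, next to Neat1, held 237, 218 and 230 CPM in B6 and 238, 222 and 237 CPM in D2 (0.03 ± 0.06, adjusted p = 0.743). Mir21a was not called without B6 replicate 2 or D2 replicate 2 or 3.

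Signalling genes held fewer broad regions, so the counts are small beside the 59.4% of broad regions and 49.3% of all regions called. For the LIF and STAT3 pathway, which sustains self-renewal, 6 of 11 genes had one: Myc rose (0.22 ± 0.07, adjusted p = 0.00837), Bcl3 fell (-0.15 ± 0.06, adjusted p = 0.0366), and Socs3, Il6st, Lifr and Tgif1 were not called. The Bcl3 call was lost with DESeq2 and without B6 replicate 1 or 3 or D2 replicate 1 or 2, and that of Myc without B6 replicate 2, while Socs3 (without D2 replicate 1) and Tgif1 (without B6 replicate 1) were then called higher. Of the 6, 4 were higher and 1 lower in the repeated libraries, with a median of 0.59 (broad regions 0.11). Among broad regions 38.3% were higher and 25.2% lower there, and among all regions 23.1% and 22.8%. All 4 regions among 13 TGF-beta and BMP genes were called. Lefty2, a Nodal antagonist, rose (0.36 ± 0.07, adjusted p = 1.41e-05), and Nodal itself (-0.18 ± 0.06, adjusted p = 0.0123), Id2 (-0.22 ± 0.07, adjusted p = 0.0131) and Smad7, an inhibitor of the pathway (-0.33 ± 0.06, adjusted p = 1.87e-05), fell. In the repeated libraries Lefty2 rose again (0.86 ± 0.10, adjusted p = 4.06e-08), but Smad7 (0.47 ± 0.09, adjusted p = 0.000147) and Id2 (0.71 ± 0.14, adjusted p = 0.000115) were higher in D2, against their direction in the separate lines, and Nodal was not called (0.03). In the separate lines the Nodal call was lost without D2 replicate 2 and that of Id2 without B6 replicate 3 or D2 replicate 2. Of 14 Wnt genes 4 had one. The repressor Tcf7l1 (0.28 ± 0.07, adjusted p = 0.00112) and the receptor Fzd7 (0.19 ± 0.07, adjusted p = 0.0248) rose, and Fzd5 and Axin2 were not called. Fzd7 was not called without B6 replicate 2 or D2 replicate 1 or 2, and Axin2 was called higher without B6 replicate 3 or D2 replicate 1. All 4 were higher in the repeated libraries, with a median of 0.62 (broad regions 0.11, with 38.3% higher), Fzd5 among them (0.56 ± 0.10, adjusted p = 2.98e-05). Of 12 FGF and ERK feedback genes, whose pathway the MEK inhibitor blocks, only 2 had one. Spry2 fell from 108, 100 and 107 CPM to 72.6, 81.9 and 70.9 CPM (-0.48 ± 0.07, adjusted p = 3.23e-08) but was not called in the repeated libraries (-0.01), and Etv5 rose (0.17 ± 0.06, adjusted p = 0.0246), a call lost without B6 replicate 2 or D2 replicate 2. Of 21 early lineage regulators only Otx2 had one (0.08 ± 0.07, adjusted p = 0.38). The cause of the opposite directions at Smad7 and Id2 was not tested.

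A broad region is made of pieces, and they did not always move together. The shared list of the other tables cuts the broad regions into 12980 shorter rows, a median of 4 and at most 22 per region. Between D2 and B6 in the repeated libraries, 6367 of 12978 rows tested were called (49.1%, all rows 28.1%). In 2375 broad regions the called rows had 1 direction, in 593 no row was called, and in 321 rows were called both ways. The log2 differences of the rows of 1 region spanned a median of 0.73. In regions changed 2-fold in the separate lines, on average 93.6% of the rows were called in the region's direction. Every row was called that way in 163 of 201. Choosing regions for a large change of the whole favours this, and the share in other regions was not computed. Of the 1338 regions not called in the separate lines, 181 held rows called both ways.

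The region of Ppil1, a spliceosomal isomerase, shows such opposing pieces (chr17:29257356-29271664). As a whole it held 79, 78.4 and 78.6 CPM in B6 lines and 74.2, 77.3 and 76.7 CPM in D2 lines and was not called. In the repeated samples its first row (chr17:29258392-29261269) held 37.7 and 39.8 CPM in B6 and 5.95 and 4.32 CPM in D2 (-2.86 ± 0.17, adjusted p = 1.43e-18). Its last row (chr17:29268549-29269444) held 4.91 and 4.82 CPM in B6 and 8.95 and 6.93 CPM in D2 (0.74 ± 0.20, adjusted p = 0.00413). At Lekr1 (chr3:65642322-65668574) the first row fell (-1.29 ± 0.17, adjusted p = 6.57e-08), while the row at chr3:65656271-65660648 rose from 53.2 and 56.9 CPM to 124 and 110 CPM (1.09 ± 0.13, adjusted p = 3.37e-09). At Gja1, coding for connexin 43, the first row rose (1.01 ± 0.17, adjusted p = 5.62e-06) and the row at chr10:56393694-56394700 fell from 12.5 and 13.8 CPM to 4.95 and 3.98 CPM (-1.51 ± 0.19, adjusted p = 1.37e-08).

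The congenic lines ask which broad regions follow the chromosome 13 segment. The segment contrasts and the contrast of D2 with B6 share libraries of B6 and D2, so their values are set side by side only. With the D2 segment on a B6 background, 1204 broad regions differed from B6 (36.6%, all regions 22.5%), 953 higher (29.0%, all regions 13.4%) and 251 lower (7.63%, all regions 9.16%). Library totals in place of TMM turned this split to 799 higher and 877 lower and moved the median of all regions by -0.15, so the direction of the excess depends on the scaling. On a D2 background, 698 differed between D2 and D2-13B6 (21.2%, all regions 11.6%), 308 higher with D2 alleles (9.36%, all regions 4.08%) and 390 lower (11.9%, all regions 7.48%). Without replicate 2 of D2 the count was 306, and without replicate 1 of D2-13B6 it was 972. Library totals gave 509 higher and 649 lower, and keeping all libraries apart gave 619 and 682. Regions without a start were called more often than those with one in both contrasts: 46.7% and 30.5% on the B6 background and 28.0% and 17.1% on the D2 background. The effect of the segment differed between backgrounds by an interaction test in 784 of 3289 broad regions (23.8%, all regions 12.2%), 650 of them positive and 134 negative. Of the 784, 120 lay on chromosome 11, which holds 291 broad regions. The share over all regions of that chromosome was not computed. The interaction was not recomputed without replicate 1 of D2-13B6 or with library totals. Library totals change the direction of the excess on the B6 background.

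On the D2 background chromosome 13 and chromosome 11 had the medians farthest from 0 among the autosomes. On chromosome 13 the median log2 difference of 153 broad regions was 0.22 in both segment contrasts, and 44.4% on the B6 background (broad regions 29.0%, all regions 13.4%) and 32.0% on the D2 background (9.36% and 4.08%) were higher with D2 alleles. On the B6 background the medians of chromosomes X (0.29, 35 regions), Y (0.30, 2 regions), 14 (0.20) and 1 (0.19) were above or close to it, and with library totals that of chromosome 13 was 0.09. On chromosome 11, 124 of 291 broad regions were lower and 2 higher in D2 than in D2-13B6, with a median of -0.27. Over all 4759 regions tested there the median was also -0.27, with 1004 lower and 27 higher. The medians of broad regions on the other autosomes except chromosome 13 lay between -0.01 and 0.06, and between B6-13D2 and B6 chromosome 11 had a median of 0.05. Without replicate 1 of D2-13B6 the chromosome 11 median was -0.30, with 164 lower and 5 higher. The D2-13B6 genotype is 1 line, so a property of that line and an effect of the segment cannot be told apart. Off chromosomes 11 and 13, 515 of 2845 broad regions were called in D2 against D2-13B6 (18.1%, all regions of all chromosomes 11.6%), 257 higher and 258 lower.

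The strongest differences that followed the segment lay together on chromosome 13. Between 65 and 67 Mb there were 18 broad regions, and 17 of them were higher with D2 alleles in the separate lines, in the repeated parental libraries and in both segment contrasts. Without D2 replicate 2, 1 of the 17 was no longer called on the D2 background (0.40). The median log2 difference was 1.64 in the separate lines, 3.62 in the repeated D2 and B6 libraries, 3.88 for B6-13D2 against B6 and 3.84 for D2 against D2-13B6. Of the 18, 17 held no protein-coding start. The median over the 18 regions was 41.9, 41.1 and 39.5 CPM in B6 lines and 108, 116 and 112 CPM in D2 lines. In the repeated samples it was 29.9 and 34.3 CPM in B6, 423 and 434 CPM in D2, 543 and 518 CPM in B6-13D2, and 29.7 and 35.4 CPM in D2-13B6. Level thus went with the allele carried in the segment, whatever the background, and the 2 antibody series differed in the size of the difference.

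The largest segment difference of these regions was at chr13:65521313-65533756, inside the predicted genes Gm48165 and Gm48166. It held 14.7, 17.8 and 14.9 CPM in B6 lines and 92.8, 100 and 103 CPM in D2 lines. In the repeated samples it held 11.4 and 11.1 CPM in B6, 422 and 388 CPM in D2, 533 and 501 CPM in B6-13D2 and 8.47 and 8.44 CPM in D2-13B6. The log2 difference was 5.52 ± 0.12 on the B6 background and 5.58 ± 0.12 on the D2 background (adjusted p = 2.92e-22 and 2.91e-22). The region of 2410141K09Rik, a KRAB zinc finger gene and the single protein-coding start among the 18, gave 4.71 and 4.13. The one exception, inside Ptdss1 (chr13:66937899-66950561), was lower in D2 in the separate lines (-0.48), in the repeated parental libraries (-1.11) and on the B6 background (-0.44), and was not called on the D2 background (-0.09). The call on the B6 background was lost with DESeq2 and without B6 replicate 3 or B6-13D2 replicate 2. The neighbouring broad regions moved less. Of the 16 between 60 and 65 Mb, the median was 0.29 and 0.27 in the segment contrasts, and the one inside Fancc, a Fanconi anaemia gene, was lower with D2 alleles (-1.86 and -1.31). Both broad regions between 67 and 70 Mb, at Zfp459 and inside Zfp493, were lower with D2 alleles in every contrast.

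H3K9me3 was higher in the same place with the same alleles. The 18 regions hold 79 rows of the H3K9me3 tables. Of 77 tested in the repeated libraries, 77 were higher with D2 alleles in D2 against B6 (all rows 4.58% higher), in B6-13D2 against B6 (all rows 1.23%) and in D2 against D2-13B6 (all rows 1.81%), with medians of 3.40, 3.89 and 3.91. In the separate lines 70 of 76 were higher and 2 lower (all rows 17.3% and 17.4%). Both marks therefore rose together here, although they are known for opposite chromatin states. Repeats masked in the reference made up 23.7% to 48.7% of these regions, with a median of 33.2% against 26.9% over all broad regions. No library without immunoprecipitation was used here, so the number of copies of these sequences in each line was not tested, and values for near-identical copies are uncertain.

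**Figure D4:**
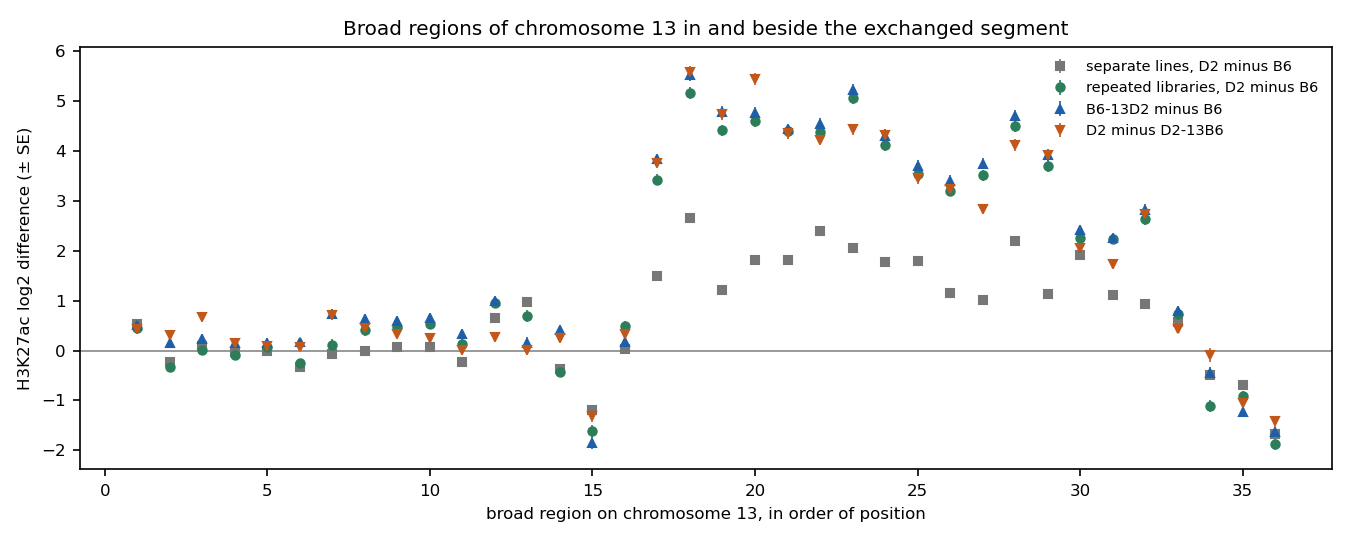
Log2 difference in H3K27ac, bars ± SE, of the 36 broad regions in and beside the exchanged segment of chromosome 13, in order of position. Grey squares show the separate lines, green circles the repeated D2 and B6 libraries, blue and orange triangles the segment on the B6 and the D2 background, each as D2 allele minus B6 allele; regions 17 to 33 in this order are higher with D2 alleles in all 4, up to 5.58.

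Away from chromosome 13, 233 broad regions were called the same way in both segment contrasts, 132 higher and 101 lower with D2 alleles, out of 315 called in both. They were 7.43% of the 3136 broad regions tested there, against 3.75% of all regions, and 74.0% of those called in both, against 76.6% of all regions called in both. Named for their size after their values were seen, the strongest lay near Obox6, an oocyte homeobox gene (chr7:15846827-15858186), inside Erc2, Ypel2 and Rnf8, and in 2 neighbouring regions of Adam32. The region near Obox6 held 62.2, 53.7 and 47.7 CPM in B6 lines and 10.7, 11.2 and 10.1 CPM in D2 lines. In the repeated samples it held 91.4 and 97.8 CPM in B6, 3.97 and 4.38 CPM in B6-13D2, 7.87 and 10.8 CPM in D2 and 75.7 and 68.9 CPM in D2-13B6 (-4.52 ± 0.14 and -3.01 ± 0.13, adjusted p = 2.89e-19 and 7.89e-16). Each line with the D2 segment was low and each with the B6 segment high.

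The region inside Erc2, coding for a presynaptic scaffold (chr14:27681711-27692282), had the same order, with 57.1 and 62.8 CPM in B6, 9.62 and 11.4 CPM in B6-13D2, 15.8 and 16.8 CPM in D2 and 59.5 and 55.4 CPM in D2-13B6 (-2.53 ± 0.12 and -1.82 ± 0.12). The 2 regions at Adam32, a testis metalloprotease gene, went the other way. The one that holds its start (chr8:24934344-24949736) held 14 and 12.8 CPM in B6, 42.5 and 41.5 CPM in B6-13D2, 53.7 and 53 CPM in D2 and 15.6 and 12.8 CPM in D2-13B6 (1.64 ± 0.12 and 1.93 ± 0.12). Dnmt3a, low in D2 above, also followed the segment: its region held 66.1 and 67.2 CPM in B6, 32.3 and 30.4 CPM in B6-13D2, 29.7 and 27.8 CPM in D2 and 92.8 and 93.9 CPM in D2-13B6 (-1.08 ± 0.10 and -1.69 ± 0.10, adjusted p = 7.24e-09 and 9.91e-13). By contrast, the strongest strain differences near Ust, at Ubd and inside Shisa7 were not called in either segment contrast, and Btn2a2, elsewhere on chromosome 13, was not called on the B6 background (0.12 ± 0.09) and 0.62 ± 0.13 higher on the D2 background.

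H3K9me3 was low in broad regions, but where it was counted it often differed between strains. The 12980 rows in broad regions had a median of 2.57 CPM per kb of H3K9me3, against 5.36 over all rows, and 6.93% of them lay above the 90th percentile of all rows, 22.5 CPM per kb. Of 3022 rows with enough counts to test in the separate lines, in 1639 broad regions, 1444 were called (47.8%, all rows 34.7%). Of these, 564 were higher in D2 (18.7%, all rows 17.3%) and 880 lower (29.1%, all rows 17.4%). They lay in 868 broad regions. In the repeated libraries 992 of 6135 rows were called between D2 and B6 (16.2%, all rows 11.3%), and 686 of the 1444 were called the same way and 9 the opposite way. Few rows were called in the segment contrasts: 226 on the B6 background (3.68%, all rows 1.69%) and 181 on the D2 background (2.95%, all rows 2.20%). Without chromosomes 11 and 13, an exclusion chosen after seeing the data, these counts were 127 and 55. Leaving out replicate 1 of D2 gave 100 rows on the D2 background, leaving out replicate 1 of D2-13B6 gave 376, and leaving out replicate 1 of B6-13D2 gave 145 on the B6 background and leaving out replicate 2 gave 148. With DESeq2 the counts were 132 and 108. Without replicate 2 of D2 the count between D2 and B6 was 561. The marks moved in like and in opposite directions. Beside H3K9me3 rows higher in D2, the broad region was higher in H3K27ac for 212, lower for 236 and not called for 116, and beside rows lower in D2 for 433, 247 and 200. Over all broad regions 31.9% were higher and 27.5% lower in H3K27ac. Of the rows higher in D2, 70 lay in the 18 broad regions of chromosome 13 between 65 and 67 Mb. Of those 18 regions 17 were higher in H3K27ac. Several rows can lie in 1 broad region, so these rows are not independent cases.

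The largest H3K9me3 differences were short islands inside broad regions. A row of 555 bp in an intron of Arhgap21, also within the non-coding gene Gm13380 (chr2:20924914-20925468), held 41.2, 32.6 and 37.9 CPM of H3K9me3 in B6 lines and 0, 0 and 0.752 CPM in D2 lines, the last from 1 count (adjusted p = 1.82e-13). Its H3K27ac in the repeated samples fell too, from 6.82 and 8.96 CPM in B6 to 2.11 and 1.14 CPM in D2 (-2.12 ± 0.26, adjusted p = 1.67e-08). D2-13B6 held 1.02 and 2.28 CPM. Whether this sequence is present in D2 and maps to the B6 reference was not tested, so both losses are uncertain. A row in an intron of Vps54, coding for a tethering subunit of the Golgi (chr11:21256212-21257208), held 4.23, 1.09 and 5.13 CPM in B6 and 109, 115 and 129 CPM in D2 (5.02 ± 0.29, adjusted p = 4.43e-17). This row followed the segment, with 3.96 ± 0.35 on the B6 background and 2.66 ± 0.37 on the D2 background, and its H3K27ac fell in D2 from 40.8 and 46.5 CPM to 27.2 and 25.7 CPM (-0.71 ± 0.14, adjusted p = 5.9e-05). At Slc10a7, a row in an intron (chr8:78512782-78514165) held 121, 65.3 and 94.3 CPM in B6 and 3.29, 3.74 and 3.76 CPM in D2 (-4.66 ± 0.29, adjusted p = 4.46e-16), while its H3K27ac was not called (0.24 ± 0.14).

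In the intron row of Rps15a (chr7:118110284-118112993), a ribosomal protein gene, H3K9me3 rose from 6.34, 2.18 and 5.13 CPM to 132, 69.2 and 101 CPM (4.41 ± 0.32, adjusted p = 2.15e-14) and H3K27ac fell from 31.7 and 37.5 CPM to 19.6 and 15.6 CPM (-0.94 ± 0.14, adjusted p = 1.26e-06). At Gm11635, in contrast, both marks rose: H3K9me3 from 1.06, 2.18 and 2.05 CPM to 42.8, 48.7 and 57.9 CPM and H3K27ac from 3.71 and 2.58 CPM to 24.2 and 21.7 CPM (2.80 ± 0.19, adjusted p = 2.2e-16). In a row inside Msi2, coding for an RNA-binding protein of stem cells, H3K9me3 rose from 2.11, 0 and 2.05 CPM to 33.7, 38.1 and 36.1 CPM and H3K27ac was not called (0.09 ± 0.13). In the region of Eed, a core subunit of Polycomb repressive complex 2, a row in the non-coding gene E230029C05Rik held 1.06, 2.18 and 1.03 CPM of H3K9me3 in B6 and 34.5, 31.2 and 30.8 CPM in D2. Its H3K27ac was lower in D2, at 0.945 and 1.7 CPM against 2.56 and 2.58 CPM (-1.07 ± 0.32, adjusted p = 0.00954). H3K9me3 differences between D2 and B6 in the repeated libraries were 1.45 at Rps15a, 1.47 at Msi2 and 3.25 at Vps54. Apart from Vps54 and the row on chromosome 13 (chr13:65626857-65627215), none of these 8 rows was called in a segment contrast.

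**Figure D5:**
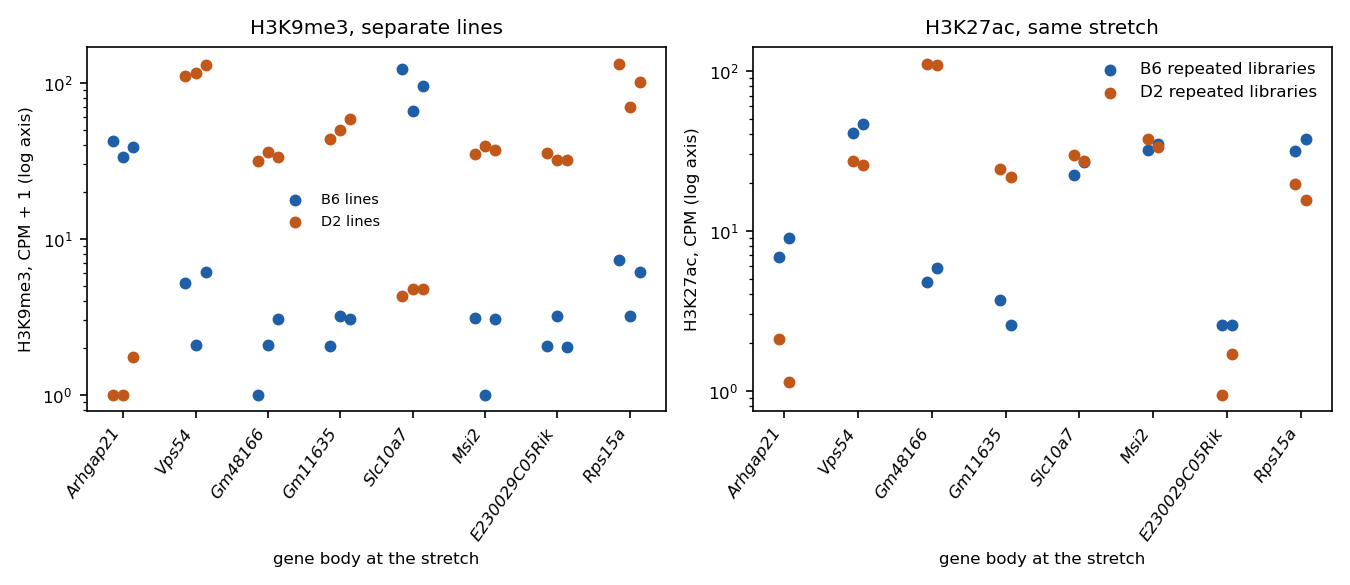
The 8 rows inside broad regions with the largest H3K9me3 differences between D2 and B6 lines, named by the gene body they lie in. Left, H3K9me3 as CPM + 1 on a log axis, 1 point per separate line (B6 blue, D2 orange); right, H3K27ac of the same rows as CPM on a log axis, 1 point per repeated sample. H3K9me3 differs in all 8 with no overlap, since the rows were chosen for that difference. H3K27ac is lower in D2 at Arhgap21, Vps54, E230029C05Rik and Rps15a and higher at Gm48166 and Gm11635.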

How the data were processed

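The values analysed are the read counts per region that the authors deposited for 34 libraries, with duplicate reads removed per the file headers. Separate tables hold H3K27ac of the separate lines over its own 96988 regions, and H3K27ac and H3K9me3 of the other libraries over a shared list of 248336 shorter rows. The submitters' processing notes name Trimmomatic 0.39, HISAT2 2.2.1, MACS 1.4.2, bedtools 2.9.2, edgeR and mm10. How the regions were merged, and whether reads with several matches were kept, is not given in the sources used here. Sequence missing from D2, or hard to map there, was not tested for either mark. Per-library columns that matched no sample (2) were not used.

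Broad regions were taken by width. For H3K27ac in the repeated libraries, rows were summed within the region of their largest overlap, which gave counts for 3289 broad regions. H3K9me3 rows were tested singly and assigned to a broad region by an overlap of at least 1 bp. Counts were tested with edgeR 4.0.16 (R 4.3.3) by its quasi-likelihood test after TMM scaling and filterByExpr (minimum count 10, total 15), over the whole table, with Benjamini-Hochberg adjustment and a threshold of 0.05. The SE is the log2 difference divided by the square root of F. DESeq2 1.42.0, library totals, other filters, other widths, a replicate block and leaving out each library were alternatives. The fits were tested on simulated data. Repeated libraries of 1 line were summed where their counts did not differ by chi-square (p above 0.05, using only regions in which both together held 40 counts or more). Genes are from GENCODE M21, microRNAs from RefSeq, and sequence from GRCm38.p6.

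The regions to name were the 10 widest, the 5 widest without a start, the 5 densest and 3 thinnest, the 8 largest called strain differences in each direction without overlap of lines, the 3 nearest the width limit on each side, the 4 largest segment effects in each direction, those shared by both backgrounds (up to 6), those of chromosome 13 from 60 to 70 Mb, the 8 with the largest H3K9me3 differences, and those with a start of a listed gene. Some regions that this rule names are not reported here. The members and the lists were chosen with earlier results of these data known. Same-numbered samples did not deviate together (correlations from -0.09 to 0.20), so numbers pair no samples. In the repeated libraries p-values cover only technical spread. Low counts limit the H3K9me3 rows: a group of 3 counts or fewer is given without a fold.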

Additional observations from a re-analysis of the deposited data

Results flagged for a closer look

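Among all broad regions named here, 6 had a segment effect that differed between backgrounds by an interaction test and by at least 1 on the log2 scale, a size chosen after seeing the data. The region of the predicted gene Gm37596 (chr3:93690477-93704484) had an interaction of -1.95 ± 0.18 (edgeR adjusted p = 1.6e-07). In the repeated samples it held 104 and 123 CPM in B6 and 31.6 and 30.2 CPM in B6-13D2 (-1.86 ± 0.12), but 24 and 21.6 CPM in D2 and 25 and 19.1 CPM in D2-13B6 (0.09 ± 0.13). It was low in 3 of the 4 lines, all but B6, and in the separate lines it was lower in D2 (-1.89 ± 0.08).

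The region near Obox6 (chr7:15846827-15858186) had an interaction of -1.51 ± 0.21 (edgeR adjusted p = 2.65e-05). It was lower with the D2 segment on both backgrounds (-4.52 ± 0.14 on B6 and -3.01 ± 0.13 on D2). At Nr0b1 on X the interaction was 1.17 ± 0.15 (edgeR adjusted p = 1.15e-05), with 0.43 ± 0.11 on the B6 background and -0.75 ± 0.11 on the D2 background. At Il6st, coding for the gp130 receptor chain and also on chromosome 13, it was 1.01 ± 0.14 (edgeR adjusted p = 2.12e-05), with 0.82 and -0.19. The regions at the start of chromosome 9, uncertain for their repeats, had -1.18 ± 0.16 (edgeR adjusted p = 2.37e-05) and -1.14 ± 0.16 (edgeR adjusted p = 2e-05). Each congenic genotype is 1 line, so an effect of the line and of the segment cannot be told apart.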

How the results depend on the processing

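Counts of called broad regions kept within 1.5 times of the reported ones except as follows. With a width limit of 8000 bp the H3K27ac counts were 2974 (separate lines), 3197 (D2 against B6, repeated), 1864 (B6-13D2 against B6) and 1094 (D2 against D2-13B6), and with 12000 bp the last was 460. That contrast also gave 1301 with all libraries kept apart and 1158 with library totals. For H3K9me3 rows, requiring a mean of 20 counts left 934 in the separate lines. DESeq2 gave 551, 132 and 108 in the 3 repeated contrasts, and leaving out chromosomes 11 and 13 gave 127 and 55 in the segment contrasts.

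Leaving out 1 library at a time gave 1729 to 1965 (H3K27ac, separate lines), 1609 to 2324, 941 to 1578 and 306 to 972 (repeated contrasts), 1329 to 1439 (H3K9me3, separate lines), 561 to 1121, 145 to 248 and 100 to 376 (repeated), and 4794 to 7051 H3K27ac rows. The low of 306 is without replicate 2 of D2.

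With a replicate block the counts were 2030, 2500, 1801 and 1316 for H3K27ac regions and 1387, 998, 221 and 178 for H3K9me3 rows, with the repeated H3K27ac libraries kept apart. Same-numbered samples share only a number.

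Library totals shifted the median of all features by -0.12 and -0.15 in the D2 and B6-13D2 contrasts with B6 for H3K27ac, by -0.15 for rows between D2 and B6, and by 0.16 and 0.09 for H3K9me3 in the separate and repeated D2 to B6 contrasts. The H3K9me3 split in the separate lines was then 668 higher and 765 lower, and the H3K27ac row split in the repeated libraries 3163 higher and 4190 lower, against 3430 and 2937 with TMM.

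Of the named H3K27ac values recomputed under the alternatives in the separate lines, 1934 kept direction and side of the threshold, 49 gained it, 62 lost it and 1 reversed. That was Eno1, at 0.16 (adjusted p = 0.0486) without D2 replicate 1 and -0.26 without D2 replicate 3.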
